A study of Mus musculus with 6 samples.

Results

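The genes of eicosanoid synthesis were examined in RNA sequencing of peritoneal macrophages (PEMs) from mice with a conditional *Tim-4* knockout and from their controls. The members were 10 named genes, of 15415 in the deposited table, and all 10 were found by their symbol. They were the phospholipase *Pla2g4a*, 5 genes of the prostanoid branch (*Ptgs1*, *Ptgs2*, *Ptges*, *Tbxas1* and the receptor gene *Ptger4*) and 4 genes of the leukotriene branch (*Alox5*, *Alox5ap*, *Ltc4s* and *Lta4h*). PEMs were flushed from the abdominal cavity of male C57BL/6J mice, 6 to 8 weeks old, after an injection of starch, which draws macrophages into the cavity. The 3 knockout libraries were from *Tim-4* fl/fl mice with LysM-Cre, a Cre placed in the lysozyme gene *Lyz2*, which removes floxed *Tim-4* from myeloid cells. The 3 control libraries were from mice that carry the same floxed alleles but no Cre, so the Cre allele and the deletion cannot be told apart. LPS is given in the labels as the treatment of all 6 libraries, and no untreated library was analysed here. The study's methods describe LPS activation of PEMs without saying whether it was applied to the sequenced cells. The libraries were grouped by their titles, because the genotype entry of the labels has the groups reversed. Nothing in the labels says that each library came from its own mouse, so p-values measure the spread between libraries only.

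Eicosanoids are short-lived signalling lipids made from arachidonic acid, a fatty acid that cytosolic phospholipase A2 cuts out of membranes. In the prostanoid branch the cyclooxygenases turn arachidonic acid into prostaglandin H2, from which terminal synthases make prostaglandin E2, thromboxane and other prostanoids that act through receptors on nearby cells. In the leukotriene branch 5-lipoxygenase and its membrane partner FLAP make leukotriene A4, from which one enzyme makes the neutrophil attractant leukotriene B4 and another the cysteinyl leukotriene C4. Macrophages are a classic source of both kinds of lipid, and LPS is known to induce cyclooxygenase-2 and the inducible prostaglandin E synthase in them.

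The sequence before the transcription start is shown for the inducible enzymes *Ptgs2* and *Ptges*, for *Ptger4*, which alone passed the test, and for *Alox5*, whose levels followed those of *Ptges* most closely among the members. Each is the 250 bases up to the start site in the RefSeq promoter table of GRCm38.p6, read 5′ to 3′ on the strand of the gene. *Ptgs2* lies on the plus strand, at chr1:150099781-150100030, and the others on the minus strand, *Ptges* at chr2:30903298-30903547, *Ptger4* at chr15:5244188-5244437 and *Alox5* at chr6:116461179-116461428. The labels name mm9 as the build of the deposited data, so these positions apply to the reference only. Capitals mark the GC box GGGCGG and the C/EBP-type motif TTNNGNAA on either strand, and matches that overlap run together.
Ptgs2: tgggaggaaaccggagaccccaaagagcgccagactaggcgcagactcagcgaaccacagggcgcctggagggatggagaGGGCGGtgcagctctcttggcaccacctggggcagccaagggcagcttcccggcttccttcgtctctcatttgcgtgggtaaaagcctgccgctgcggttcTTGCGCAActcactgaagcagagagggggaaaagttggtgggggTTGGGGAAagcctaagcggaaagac
Ptges: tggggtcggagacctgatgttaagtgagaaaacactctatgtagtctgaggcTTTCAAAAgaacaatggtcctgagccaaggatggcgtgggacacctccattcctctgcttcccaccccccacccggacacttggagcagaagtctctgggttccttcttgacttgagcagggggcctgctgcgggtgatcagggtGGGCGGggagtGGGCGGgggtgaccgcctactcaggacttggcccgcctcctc
Ptger4: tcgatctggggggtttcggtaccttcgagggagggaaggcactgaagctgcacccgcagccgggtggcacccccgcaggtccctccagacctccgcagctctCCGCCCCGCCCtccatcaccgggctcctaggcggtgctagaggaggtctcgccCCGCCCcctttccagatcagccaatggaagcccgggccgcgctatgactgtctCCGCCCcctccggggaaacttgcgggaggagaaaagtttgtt
Alox5: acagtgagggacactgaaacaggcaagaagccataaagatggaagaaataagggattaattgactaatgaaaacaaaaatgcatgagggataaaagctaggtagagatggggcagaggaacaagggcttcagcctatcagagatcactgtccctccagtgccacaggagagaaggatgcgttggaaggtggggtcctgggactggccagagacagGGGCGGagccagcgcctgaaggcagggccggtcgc

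Windows were found for 9 of the 10 members, 10 windows in all because *Pla2g4a* has a pair of them, and none was found for *Alox5ap*. The GC box stood in 4 of the 10 windows, those of *Ptgs2*, *Ptges*, *Ptger4* and *Alox5*, against 32.7% of 32851 RefSeq windows of the same length. *Ptger4* held 4 matches and *Ptges* 2. The C/EBP-type motif stood in the windows of *Ptgs2*, *Ptges* and *Pla2g4a* (1 of its 2), against 36.8% of all windows. The PU.1 core GAGGAA was found in 6 windows (23.3% of all), TATAAA in 2 (12.4% of all) and CCAAT in 2 (33.8% of all). The NF-κB consensus had no match in any of the 10 windows and stood in 5.9% of all, which says only that these letters are not in these 250 bases. All motifs were searched on both strands, and a match describes the letters and is not evidence of binding.

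Between 36170767 and 42217558 reads per library were recovered from the deposited values, and the log2 values of the control libraries correlated between 0.948 and 0.983 across genes against 0.986 to 0.992 for the knockout libraries. *Timd4*, the gene of Tim-4, was at 0.334, 0.394 and 0.246 FPKM (reads divided by gene length and library size) in the knockout group, given here and throughout in the order of libraries 1 to 3, against 19.5, 12.05 and 1.19 FPKM in the control group (difference -2.66, limma adjusted p = 0.0715, or 0.0436 with the replicate number as a block). Control library 3 thus had the *Timd4* level nearest to the knockout libraries, and without it the difference was -3.63 (limma adjusted p = 0.00041). *Lyz2* was at 41.4, 4656 and 106.0 FPKM in the knockout group and between 7090 and 8482 FPKM in the controls, so knockout library 2 kept most of this transcript. Of the 6 macrophage markers, *Adgre1*, *Csf1r*, *Cd68* and *Itgam* were at 83.3 FPKM or more in every library, *Mertk* was between 0.821 and 12.1 FPKM, and *Lyz2*, the site of the Cre, varied as given.

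By level, the 10 members spanned group means from 1.24 to 889 FPKM. *Ptgs2*, the gene of cyclooxygenase-2, was the most abundant in both groups, at a mean of 889 FPKM in the control libraries and 446 FPKM in the knockout libraries. In the controls *Ptges* (290 FPKM) and *Alox5ap* (227 FPKM) followed, then *Pla2g4a* (48.2 FPKM) and *Lta4h* (14.7 FPKM), with *Ptgs1*, *Ptger4*, *Alox5*, *Ltc4s* and *Tbxas1* between 5.16 and 1.24 FPKM. In the knockout libraries the order was *Ptgs2*, *Alox5ap* (173 FPKM), *Ptges* (79.7 FPKM), *Pla2g4a* (22.4 FPKM) and *Lta4h* (16.9 FPKM), then *Ltc4s* (2.63 FPKM), *Ptgs1* (2.38 FPKM), *Tbxas1* (1.38 FPKM), *Ptger4* (1.26 FPKM) and *Alox5* (1.25 FPKM). *Ptges* and *Alox5ap* therefore changed places between the groups, and *Ltc4s* stood below *Ptgs1*, *Ptger4* and *Alox5* in the controls and above them in the knockout libraries. The place of *Tbxas1* in this order rests on a gene length that is in doubt. Neighbours whose libraries overlapped in the controls were *Ptgs2* with *Ptges*, *Ptges* with *Alox5ap*, *Ptgs1* with *Ptger4*, *Ptger4* with *Alox5*, and *Ltc4s* with *Tbxas1*. In the knockout libraries they were *Ltc4s* with *Ptgs1*, *Tbxas1* with *Ptger4*, and *Ptger4* with *Alox5*, while the first 5 genes were all apart.

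**Figure D1:**
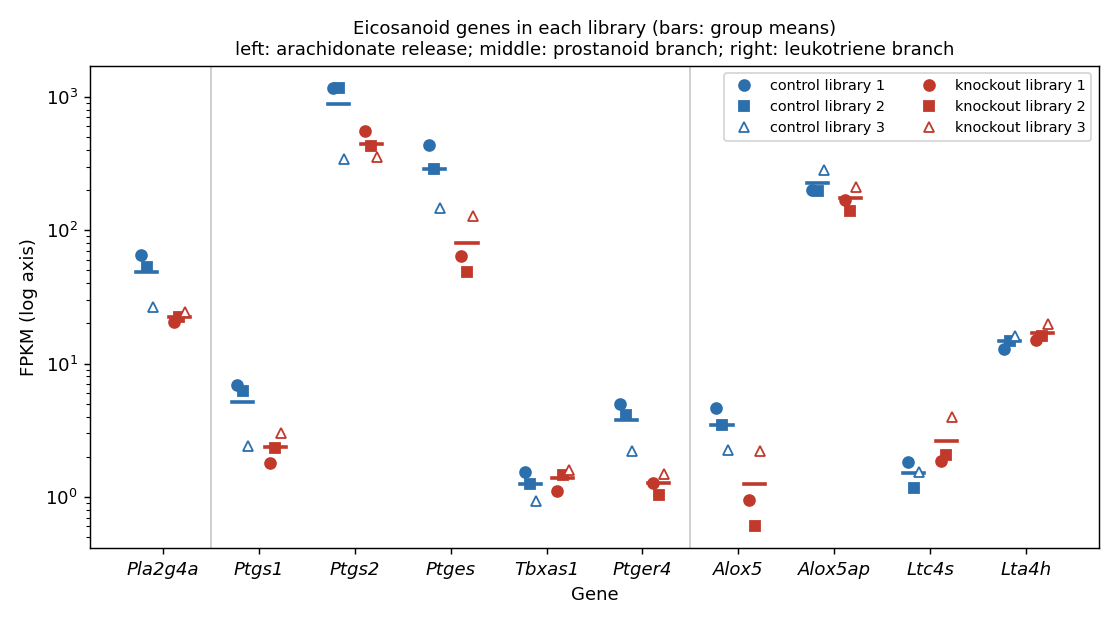
Level of each of the 10 genes in each library, in FPKM on a log axis, with controls in blue, knockout libraries in red, a marker shape for each library number and a bar at each group mean. The open blue triangles show control library 3 below the other controls in 7 genes, while *Alox5ap* and *Lta4h* were at their highest control value there.

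The question of the comparison was how loss of Tim-4 in macrophages changes their transcripts. Of the 10 eicosanoid genes, *Ptger4* alone passed the threshold (adjusted p below 0.05 over 9030 tested genes, limma with Benjamini-Hochberg adjustment), and it was lower in the knockout libraries. Its call is 1 of 10 genes, beside 7.31% of all tested genes called in either direction, 4.74% called lower and 2.57% called higher, so the share of members called was near that of all genes. The differences of 7 members were below 0 and those of 3 above, with a median difference of -0.80 on the log2(FPKM + 1) scale against -0.11 over all tested genes. Rescaling by the median of ratios, which moved the median of all tested genes to 0.01 and the share of calls that were higher from 35.2% to 51.3%, changed the sign of no member. In 5 members the groups did not overlap, 4 with every knockout library lower (*Pla2g4a*, *Ptges*, *Ptger4* and *Alox5*) and 1 with every knockout library higher (*Ltc4s*). Over all tested genes the groups did not overlap in 34.1%, and in 23.0% every knockout library was lower. An exact permutation test of 3 libraries against 3 cannot give a two-sided p below 0.1.

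At the first step of the pathway, *Pla2g4a* encodes cytosolic phospholipase A2, which releases arachidonic acid. It was at 20.6, 22.3 and 24.3 FPKM in the knockout group against 65.6, 52.7 and 26.4 FPKM in the control group. The groups did not overlap, but control library 3 was only just above knockout library 3. The difference was -0.98 on the log2 scale (standard error 0.31, adjusted p = 0.0978 from limma), short of the threshold. Without control library 3 it was -1.36 (standard error 0.15, adjusted p = 0.00304 from limma). When any other library was left out the limma adjusted p was between 0.134 and 0.279. In RefSeq only *Gm19136* and *Ptgs2os* lie between *Pla2g4a* and *Ptgs2* on the chromosome.

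*Ptgs1* encodes cyclooxygenase-1, the constitutive of the cyclooxygenases. Its values were 1.78, 2.33 and 3.04 FPKM in the knockout group and 6.89, 6.18 and 2.41 FPKM in the controls, where control library 3 lay between knockout libraries 2 and 3. The difference of -0.79 (standard error 0.32) had a limma adjusted p of 0.1701, and without control library 3 it was -1.17 (limma adjusted p = 0.00948). When any other library was left out the limma adjusted p of *Ptgs1* was between 0.189 and 0.412. *Ptgs2*, the inducible cyclooxygenase, was at 556, 429.8 and 352 FPKM in the knockout group against 1157, 1171 and 339 FPKM in the controls. Control libraries 1 and 2 were close to each other, whereas control library 3 was below every knockout library. With all libraries the difference was -0.81 (standard error 0.47; 95% interval -1.93 to 0.30; limma adjusted p = 0.303), an interval that includes 0. With control library 3 left out it was -1.41 (95% interval -1.89 to -0.93, limma adjusted p = 0.00759), and leaving out control library 1 or 2 moved it the other way, to -0.52 and -0.51 (limma adjusted p = 0.482 and 0.608). *Ptgs2* was 116 to 312 times as abundant as *Ptgs1* in the knockout libraries and 141 to 189.5 times in the controls, per length of gene, so this ratio overlapped between the groups. *Ptgs1* was divided by a length of 4902 bases, 1.71 times its longest transcript in GENCODE, and *Ptgs2* by a length 1.002 times its own.

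*Ptges*, which encodes the inducible microsomal prostaglandin E synthase, showed the largest difference of the members. It was at 64.0, 48.3 and 126.9 FPKM in the knockout group against 437, 286.5 and 145.5 FPKM in the controls, from 7432 to 62886 reads. The groups did not overlap, with knockout library 3 and control library 3 close to each other. The group means were 79.7 ± 41.6 and 289.6 ± 145.7 FPKM (SD, n = 3 each). The difference of -1.83 (standard error 0.47, 95% confidence interval from -2.93 to -0.73) just missed the threshold, with an adjusted p of 0.0589 from limma. Leaving out control library 3 gave -2.26 (limma adjusted p = 0.0148) and leaving out knockout library 3 gave -2.22 (limma adjusted p = 0.0441), both past the threshold. *Ptges* and *Ptgs2* work one after the other in making prostaglandin E2. The ratio of *Ptges* to *Ptgs2* FPKM was 0.115, 0.112 and 0.360 in the knockout libraries and 0.378, 0.245 and 0.429 in the controls, so it overlapped through knockout library 3.

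*Ptger4* encodes EP4, a receptor for prostaglandin E2 that signals through cyclic AMP. It was at 1.27, 1.03 and 1.48 FPKM in the knockout group, from 145 to 202 reads, and at 4.94, 4.09 and 2.19 FPKM in the controls, from 264 to 649 reads. *Ptger4* fell by 1.03 on the log2(FPKM + 1) scale (standard error 0.24, 95% interval -1.58 to -0.47, limma adjusted p = 0.0454). At a level this low the added 1 shrinks the difference, which was -1.44 with 0.1 added in its place. The call rested on the margin: the adjusted p from limma was 0.0833 with no filter on low values, 0.0757 on the scale of median ratios, 0.0919 with voom on the recovered reads, and between 0.0624 and 0.186 when any of the other 5 libraries was left out. Without control library 3 it was 0.0034, and with the replicate number as a block 0.0481.

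*Tbxas1* encodes thromboxane A synthase, which makes the platelet activator thromboxane A2. It was at 1.10, 1.45 and 1.58 FPKM in the knockout group against 1.54, 1.25 and 0.925 FPKM in the controls. The groups overlapped, and the difference was 0.09 (95% interval -0.27 to 0.45; limma adjusted p = 0.729). The reads behind these values were not few. There were 1264 to 2448 reads on *Tbxas1*, more than on *Ptgs1* (367 to 1333 reads) in each of the 6 libraries. The deposited values imply a gene length of 37769 bases, 8.28 times its longest transcript in GENCODE (4562 bases). Divided by that transcript the level would be 9.14, 12.01 and 13.1 FPKM in the knockout libraries and 12.8, 10.4 and 7.66 FPKM in the controls, with the difference between the groups in proportion the same. Across 14214 genes found in GENCODE the median of this length ratio was 1.045. In RefSeq the span of *Tbxas1* also overlaps *Hipk2*, a kinase gene with 4157 to 11978 reads, and since the counting rules are not known, reads of the pair may not be cleanly apart.

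In the leukotriene branch no gene passed the threshold, where 2 differences were below 0 and 2 above. *Alox5* encodes 5-lipoxygenase, the enzyme that opens the branch. It stood at 0.941, 0.602 and 2.21 FPKM in the knockout group, from 79 to 281 reads, and at 4.65, 3.48 and 2.24 FPKM in the controls, from 252 to 571 reads. The groups did not overlap, but knockout library 3 and control library 3 were nearly level. The difference was -1.01 (standard error 0.30, adjusted p = 0.0842 from limma), and -1.52 with 0.1 added in place of 1. The adjusted p from limma was 0.0377 when control library 3 was left out and 0.0424 when knockout library 3 was. With any other library left out it was between 0.125 and 0.286.

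*Alox5ap* encodes FLAP, which presents arachidonic acid to 5-lipoxygenase. At 167, 140.2 and 211 FPKM in the knockout group and 201, 196.7 and 284.5 FPKM in the controls it was far more abundant than the enzyme it serves. The groups overlapped, and control library 3 was the highest of the 6 libraries. The difference of -0.39 (95% confidence interval from -0.89 to 0.10) had an adjusted p of 0.267 from limma. The ratio of *Alox5ap* to *Alox5* FPKM was 178, 233 and 95.7 in the knockout libraries and 43.2, 56.6 and 127 in the controls. It overlapped, again through the libraries numbered 3.

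*Ltc4s* encodes leukotriene C4 synthase. Its values were 1.86, 2.06 and 3.97 FPKM in the knockout group and 1.84, 1.17 and 1.54 FPKM in the controls. Every knockout library was higher, but knockout library 1 exceeded control library 1 by 55 reads against 51. The difference was 0.49 (standard error 0.23, adjusted p = 0.214 from limma). *Lta4h* encodes leukotriene A4 hydrolase, the maker of leukotriene B4, and was at 14.9, 16.0 and 19.7 FPKM in the knockout group against 12.9, 14.9 and 16.2 FPKM in the controls. The groups overlapped, and the difference of 0.19 (95% confidence interval from -0.17 to 0.55) had an adjusted p of 0.458 from limma. The ratio of *Ltc4s* to *Alox5* FPKM was between 1.80 and 3.42 in the knockout libraries and between 0.337 and 0.685 in the controls and did not overlap. That separation was fixed by *Ltc4s* being higher and *Alox5* lower in every knockout library, and it adds nothing to their own values.

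**Figure D2:**
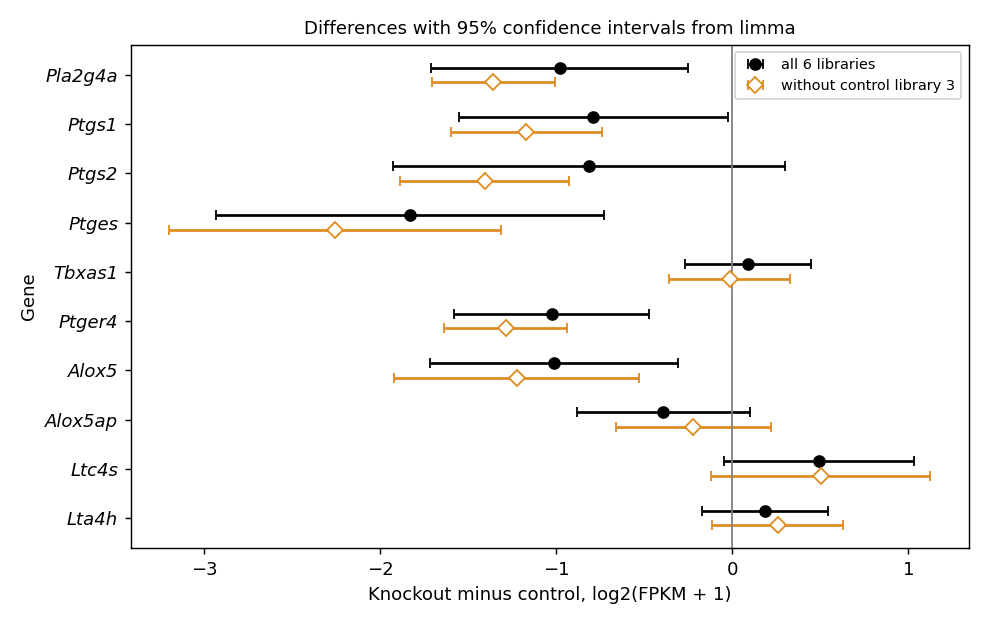
Difference between knockout and control libraries for each gene on the log2(FPKM + 1) scale, with 95% confidence intervals from limma, for all 6 libraries (black) and without control library 3 (orange). The estimates of *Pla2g4a*, *Ptgs1*, *Ptgs2*, *Ptges*, *Ptger4* and *Alox5* lay below 0 in both fits, with intervals that narrow without control library 3 in each of the 6, and those of *Tbxas1* and *Lta4h* lay between -0.015 and 0.257.

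The number of members called changed with each library left out, most with control library 3. That library lay inside the range of the knockout libraries in 2 of the 10 members, against 19.6% of all tested genes. Without it 6 of the 10 passed the threshold, all lower in the knockout libraries (*Pla2g4a*, *Ptgs1*, *Ptgs2*, *Ptges*, *Ptger4* and *Alox5*), beside 8.47% of all tested genes called lower in that fit. In these 6 genes control library 3 was at 0.291 to 0.551 times the mean of the other controls. For *Alox5ap*, *Lta4h* and *Ltc4s* this ratio was 1.43, 1.16 and 1.02, and for *Tbxas1* it was 0.661. Knockout library 3 stood apart from its group in a few genes, at 2.86 times the mean of the other knockout libraries in *Alox5*, 2.26 times in *Ptges* and 2.02 times in *Ltc4s*. Without knockout library 3, 2 passed, *Ptges* and *Alox5*, both lower, beside 3.91% of all tested genes called lower in that fit. Any of the fits without control library 1, without control library 2, without the first or without the second knockout library left none of the 10 past the threshold in limma, with 3 to 5 at an unadjusted p below 0.05. Of all 9030 genes 8 to 786 passed in these fits, and 16.0% to 33.0% were at an unadjusted p below 0.05.

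Set against each other, the prostanoid branch stood above the leukotriene branch by more than 1.2 in control libraries 1 and 2, and by far less in the other 4 libraries. The mean log2(FPKM + 1) of the 5 prostanoid genes was 3.77, 3.69 and 4.03 in the knockout libraries and 5.17, 4.95 and 3.999 in the controls. For the 4 leukotriene genes it was 3.47, 3.38 and 4.03 in the knockout libraries and 3.87, 3.72 and 3.82 in the controls. The prostanoid mean exceeded the leukotriene mean by 0.31, 0.31 and 0.01 in the knockout libraries and by 1.30, 1.22 and 0.17 in the controls. Control library 3 thus lay inside the range of the knockout libraries, and the group means of 0.21 ± 0.17 and 0.90 ± 0.63 (SD, n = 3 each) differed by -0.69. Leaving out each library in turn gave -0.491 to -1.055. The members were chosen with earlier results known, so no test was made of this score. Without *Tbxas1*, whose length is in doubt, the difference was -0.93. *Tbxas1* was also the only prostanoid gene with a difference above 0 (0.09), so leaving it out widened the contrast. No leukotriene gene was left out in the same way. *Ptges* set against *Alox5ap*, relatives in the same family of membrane proteins, had FPKM ratios of 0.383, 0.344 and 0.600 in the knockout libraries and 2.17, 1.46 and 0.511 in the controls.

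**Figure D3:**
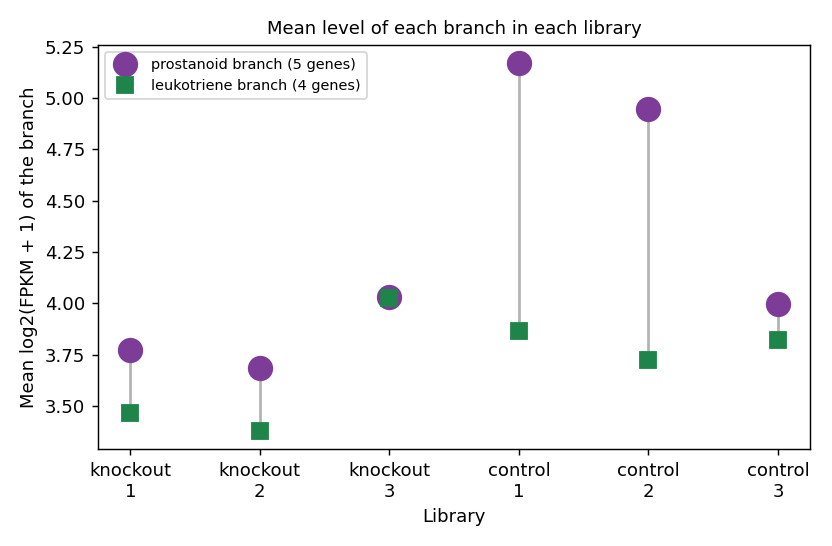
Mean log2(FPKM + 1) of the 5 prostanoid genes (purple) and of the 4 leukotriene genes (green) in each library, joined by a line. The gap is above 1.2 in control libraries 1 and 2, 0.17 in control library 3 and at most 0.31 in the knockout libraries, where the symbols of knockout library 3 lie on each other.

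Across the 6 libraries the 6 genes *Pla2g4a*, *Ptgs1*, *Ptgs2*, *Ptges*, *Ptger4* and *Alox5* correlated with each other at 0.626 to 0.993. These are the members that passed without control library 3, so a shared pattern over the same libraries was part of their choice. The Pearson correlation of log2(FPKM + 1) was 0.977 between *Ptgs1* and *Pla2g4a*, 0.975 between *Ptger4* and *Pla2g4a*, 0.993 between *Ptges* and *Alox5* and 0.968 between *Ptges* and *Ptger4*. *Lta4h* ran against *Ptgs2* (-0.776). These are descriptions of 6 libraries in 2 groups, and the difference between the groups, control library 3 included, is part of each. Among 5779 genes with a mean of at least 5 FPKM in one group, those with a pattern most like *Ptgs2* were *Btaf1* (r = 0.990), *Gvin3* (0.989) and *Mat2a* (0.982), and none of these passed the threshold (adjusted p between 0.286 and 0.528 from limma). Those most like *Alox5* were *Pilrb2* (r = 0.994), *Pilrb1* (0.993) and *Ptges* itself (0.993). *Pilrb1* and *Pilrb2* are near-identical relatives, so their reads may be shared.

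Beyond the 10 members, 62 other genes of the pathway were listed, of which 49 were in the table and 33 reached the filter. Of these 33, 4 rose and 4 fell in the knockout libraries, and 25 did not pass the threshold. The share called higher was above the 2.57% and the share called lower above the 4.74% of all tested genes, and no test of the list was made. With a median difference of -0.30 the list lay below the -0.11 of all tested genes.

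Among the prostanoid synthases, *Hpgds*, which makes prostaglandin D2, rose. It was at 5.19, 7.08 and 4.46 FPKM in the knockout group against 0.782, 1.65 and 2.41 FPKM in the controls, a difference of 1.36 (standard error 0.26, adjusted p = 0.0285 from limma). The other 6 tested synthases did not pass. Nearest to the threshold was *Ptges3*, the cytosolic prostaglandin E synthase and a co-chaperone, at 43.2, 43.0 and 53.0 against 64.8, 97.2 and 76.5 FPKM (adjusted p = 0.0509 from limma). *Ptgis*, *Prxl2b*, *Akr1b3*, *Cbr1* and *Ptges2* had differences from -0.38 to 0.42.

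Few prostanoid receptor genes reached the filter. Besides *Ptger4*, *Ptgir*, the prostacyclin receptor gene, and *Ptger2*, which encodes the other cyclic AMP-linked receptor of prostaglandin E2, reached the filter, and neither passed the threshold. *Ptgir* was at 11.6, 11.1 and 20.7 FPKM in the knockout group against 19.1, 18.1 and 20.6 FPKM in the controls. *Ptger2* was at 1.89, 1.18 and 4.33 against 2.40, 5.33 and 8.11 FPKM (adjusted p = 0.247 from limma). Unlike *Ptger4*, *Ptger2* was highest in control library 3. *Ptger1* and *Ptger3* were at most at 0.410 FPKM in any library.

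Both genes called in the transport and breakdown of prostaglandins fell. *Ptgr1*, a prostaglandin reductase that also inactivates leukotriene B4, was at 37.1, 30.2 and 76.3 FPKM in the knockout group against 131, 179 and 201 FPKM in the controls, a difference of -1.90 (standard error 0.34, adjusted p = 0.025 from limma). *Abcc4*, an exporter of prostaglandin E2, was at 1.52, 1.80 and 2.48 FPKM against 6.48, 4.99 and 4.02 FPKM, a difference of -1.07 (standard error 0.19, adjusted p = 0.0254 from limma). In both genes the groups were clearly apart, control library 3 included. *Ptgr2* did not pass (0.17). *Hpgd*, the main enzyme of prostaglandin breakdown, did not reach the filter and was not tested. It was higher in every knockout library, at 0.221, 0.469 and 0.213 FPKM (15 to 34 reads). In the controls it was at 0.0147 to 0.0161 FPKM, from 1 read in each library.

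On the leukotriene side *Abcc1*, the exporter of leukotriene C4, fell. Its values were 54.7, 36.8 and 63.5 FPKM in the knockout group and 127.5, 112.8 and 143.7 FPKM in the controls, a difference of -1.32 (standard error 0.22, adjusted p = 0.0196 from limma). *Mgst3*, a microsomal glutathione transferase of the same family as *Ltc4s*, rose from 1.22, 1.85 and 2.49 FPKM in the controls to 4.40, 5.55 and 5.39 FPKM in the knockout libraries (difference 1.12, standard error 0.19, adjusted p = 0.0204 from limma). *Dpep2*, a dipeptidase that turns leukotriene D4 into E4, was at 46.1, 50.6 and 51.3 against 43.4, 36.0 and 38.0 FPKM and did not pass (adjusted p = 0.152 from limma). The receptor genes *Ltb4r1* and *Cysltr1* overlapped between the groups, and in control library 3 *Cysltr1* was at 0.304 FPKM against 2.69 and 2.36 FPKM in the other controls. *Alox15*, the 12/15-lipoxygenase gene, fell, from 2.69, 1.76 and 1.19 FPKM in the controls to 0.156, 0.102 and 0.345 FPKM in the knockout libraries (difference -1.24, standard error 0.20, adjusted p = 0.0196 from limma). With 0.1 added in place of 1 the difference of *Alox15* was -2.73, and with voom -3.17. Its implied length was 6.35 times its longest GENCODE transcript, so its FPKM, from 66 to 216 reads in the knockout libraries and 660 to 1624 in the controls, may understate its level.

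Among the other routes to free arachidonic acid 2 genes rose. *Daglb* and *Mgll* act in sequence, a diacylglycerol lipase that makes 2-arachidonoylglycerol and the monoacylglycerol lipase that splits it. *Daglb* rose from 1.08, 0.840 and 1.47 FPKM in the controls to 3.83, 7.63 and 4.66 FPKM in the knockout libraries (difference 1.55, standard error 0.23, adjusted p = 0.0155 from limma). *Mgll* rose from 0.117, 0.187 and 0.233 FPKM to 1.59, 2.10 and 2.40 FPKM (difference 1.35, standard error 0.14, adjusted p = 0.00651 from limma). With 0.1 added in place of 1 the difference was 2.94 for *Mgll* and 2.12 for *Daglb*, and with voom it was 3.67 and 2.37. In both genes control library 3 was with the other controls, although *Mgll* remained a low transcript. *Pla2g7*, which encodes the platelet-activating factor acetylhydrolase, was the most abundant of this group at 193, 152 and 323.5 against 386, 483 and 535 FPKM and missed the threshold (adjusted p = 0.0556 from limma), whereas a fit with the replicate block put it past the threshold (limma adjusted p = 0.0324). *Plaa*, named for phospholipase A2 activation, had a difference of -0.51 (adjusted p = 0.0746 from limma). None of the 7 genes that return arachidonic acid to membranes passed, among them *Acsl1* (difference -1.26, adjusted p = 0.132 from limma), *Lpcat2* (-0.70, 0.0948), *Acsl4* (-0.46, 0.276), *Acsl5* (-0.36, 0.166), *Lpcat3* (-0.15, 0.591) and *Mboat7* (0.19, 0.392).

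**Figure D4:**
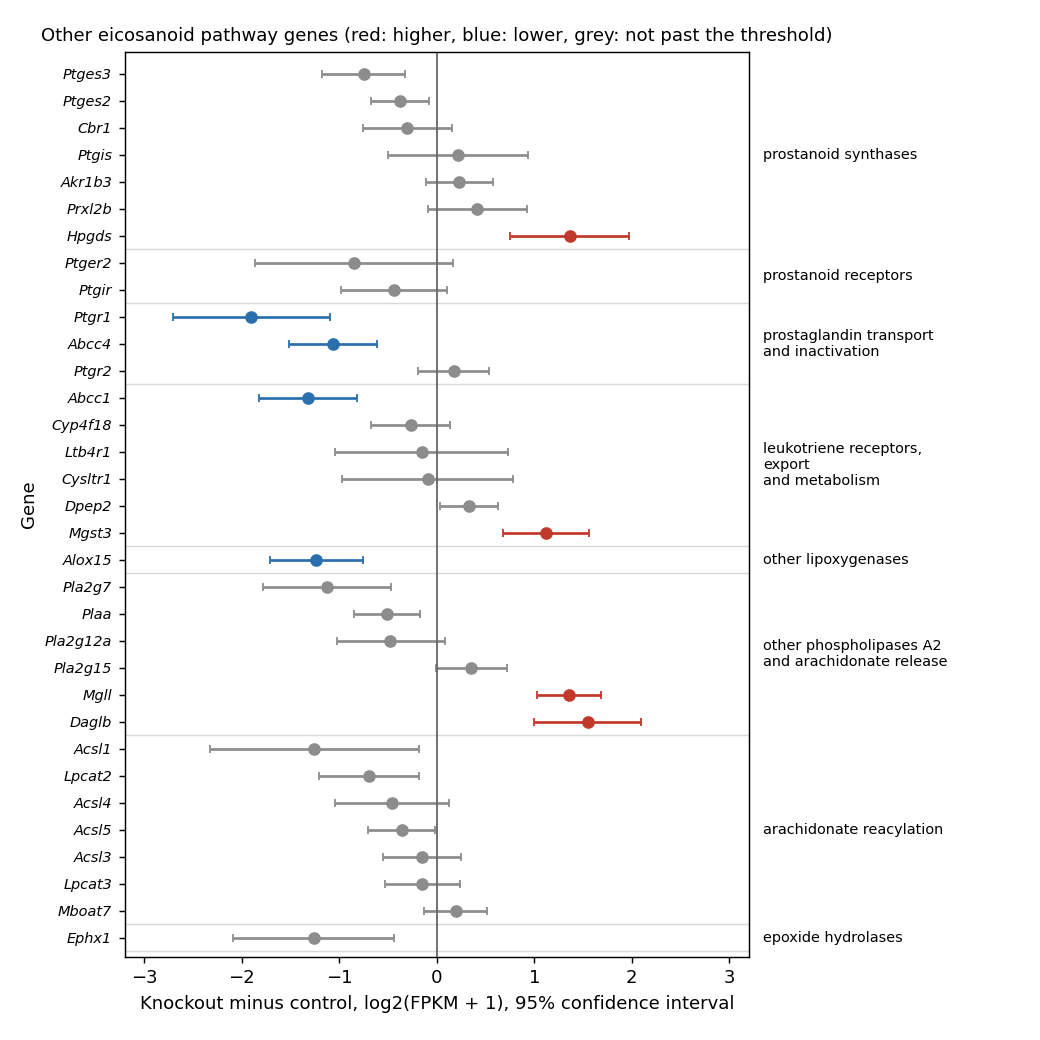
Difference between knockout and control libraries on the log2(FPKM + 1) scale with 95% confidence intervals for the 33 other pathway genes tested, grouped by role. *Hpgds*, *Mgst3*, *Mgll* and *Daglb* (red) were higher past the threshold, *Ptgr1*, *Abcc4*, *Abcc1* and *Alox15* (blue) lower, and the 25 in grey did not pass.

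None of the 8 calls held in every fit with 1 library left out. Without control library 2 none of the 33 passed in limma (13 at an unadjusted p below 0.05), without knockout library 1 *Mgll* alone did, and without knockout library 2 *Mgll* and *Daglb* did. Of all 9030 genes 8, 30 and 63 passed in these fits, and 19.7% were at an unadjusted p below 0.05 without control library 2. Without knockout library 3, *Mgst3* also missed the threshold (limma adjusted p = 0.0503), though 10 of the 33 passed in that fit. With no filter on low values 5 passed, and *Hpgds*, *Abcc4* and *Ptgr1* did not (limma adjusted p = 0.0605, 0.0547 and 0.0518). After rescaling by the median of ratios 4 were again higher and 4 lower.

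Other cell types in the peritoneal cavity also make eicosanoids, and in bulk RNA fewer cells of a type and less RNA per cell cannot be told apart. Mast cells are known for leukotriene C4 and prostaglandin D2, and 5 of their 5 tested markers fell, with a summed level of 1.89 to 2.27 FPKM over the 7 markers in the table in the knockout libraries and 38.2 to 49.3 FPKM in the controls. *Ms4a2* was listed at 0 in knockout libraries 1 and 2, but it had only 3 to 6 reads in the controls. B cell markers fell in 4 of 4, from sums of 26.9 to 113 FPKM in the controls to 2.67 to 5.43 FPKM. Of the markers of large peritoneal macrophages, the resident cells that carry Tim-4, 3 of 4 tested fell (*Prg4*, *Cd5l* and *Icam2*), with sums of 87.6 to 224.5 FPKM in the controls and 9.73 to 20.3 FPKM in the knockout libraries. Control library 3 had the lowest sum of the controls in the lists of B cells, T cells, large peritoneal macrophages, and small peritoneal macrophages and monocytes. It had the highest in those of mast cells, neutrophils, platelets, general macrophage markers, and mesothelial cells and fibroblasts. The part of these cells in the eicosanoid values was not tested.

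Fewer markers passed in the other lists. For small peritoneal macrophages and monocytes 2 of 4 tested markers fell, with sums of 90.2 to 245 FPKM in the knockout libraries and 201 to 405 FPKM in the controls. Neutrophil markers fell in 2 of 5 tested (71.2 to 201 against 195 to 459 FPKM), with *Cxcr2* at or near 0. No platelet marker passed of 2 tested, and *Gp1ba* was listed at 0 in every knockout library, with only 1 to 11 reads in the controls. Sums for platelets ran from 187 to 557 FPKM and from 302 to 935 FPKM, nearly all of it *Pf4*. Of the general macrophage markers none of 6 passed (2286 to 6957 against 8805 to 10660 FPKM), a sum mostly of *Lyz2* in the controls and knockout library 2 and mostly of *Cd68* in knockout libraries 1 and 3. Markers of eosinophils (at most 1.07 FPKM in sum), of T cells (at most 1.13 FPKM) and of mesothelial cells and fibroblasts (3.92 to 16.6 against 0.154 to 4.34 FPKM, with 0 of 3 tested called) were low. Their part in the eicosanoid values was likewise not tested.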

How the data were processed

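The members and gene lists were chosen with earlier results of these data known. RNA of PEMs was sequenced in 6 libraries (3 knockout, 3 control). The authors deposited 1 table with FPKM per library, made by them from reads per gene, gene length and the reads of the library. The signal columns that the authors deposited are group means of read counts divided by DESeq2 size factors. Also deposited were the authors' comparison as a fold change (ratio), as log2 and with its p-value and q-value, none of them used. The submitters' processing notes name mm9. Aligner, counter and annotation are not given in the sources used here. Reads per gene and library were computed back from FPKM with the help of the deposited means, and 100% of values were whole within 0.02. They cover between 36170767 and 42217558 reads, which limits the precision of low genes. The implied gene lengths were set against GENCODE M21.

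log2(FPKM + 1) was fitted by limma 3.58.1 under R 4.3.3 (moderated variances with an intensity trend) for 9030 genes, those at a mean of at least 1 FPKM in one group, with Benjamini-Hochberg adjustment at 0.05. The fit was tested on simulated reads. Named were all members, *Timd4*, *Lyz2*, other pathway genes past the threshold or at a mean of 10 FPKM or more, and the 3 genes most like *Ptgs2* and *Alox5*. Other genes (*Ptger1*, *Ptger2*, *Ptger3*, *Hpgd*, *Ptgr2*, *Ptgis*, *Cbr1*, *Ptges2*, *Ltb4r1*, *Cysltr1*, *Hipk2* and the marker genes) were picked with their values in view. Alternatives were a pseudocount of 0.1, other filters, a rescaling by the median of ratios, voom, a threshold of 0.1, each library left out, and the replicate number as a block. Deviations from the group means correlated at 0.11, 0.11 and 0.30 for libraries of the same number, all above 0.1. The main fit did not pair the libraries, and the numbers entered as a block in an alternative only. This check cannot settle whether the numbers pair the libraries. Pairs of different numbers ran from -0.33 to 0.29, the highest of them between knockout library 2 and control library 1. Lists of marker genes covered macrophages, large and small peritoneal macrophages, neutrophils, mast cells, eosinophils, platelets, B cells, T cells, and mesothelial cells with fibroblasts. Promoter sequences are from RefSeq (GRCm38.p6).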

Additional observations from a re-analysis of the deposited data

How the results depend on the processing

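The number of eicosanoid genes past the threshold, 1 in the fit reported, was also 1 with a pseudocount of 0.1, with at least 10 reads in every library and with the replicate block. It was 0 without a filter on low values, 0 after rescaling by the median of ratios and 0 with voom (4 to 5 at an unadjusted p below 0.05, as were 23.5% to 27.2% of all genes tested), 4 at a threshold of 0.1, and 0 to 6 with 1 library left out. Of the other 33 pathway genes 8 passed, against 5 without a filter, 13 at a threshold of 0.1, 9 with the replicate block and 0 to 12 with 1 library left out. Over all genes 660 passed (35.2% higher), 669 after rescaling (51.3% higher, median difference 0.01 in place of -0.11), 855 with the replicate block, 1421 at a threshold of 0.1, and 8 (without control library 2) to 1278 (without control library 3) with 1 library left out. The cause of these changes was not tested. The replicate block changed no call of a member, and of the other named genes it brought *Pla2g7* and *Timd4* past the threshold. The difference of *Tbxas1* was -0.015 to 0.187 and that of *Lpcat3* -0.233 to 0.001 with 1 library left out, turning sign without control library 3 and without control library 1, respectively. The prostanoid difference minus the leukotriene difference was -0.73 with a pseudocount of 0.1, -0.69 after rescaling and -0.74 with voom, against -0.69. For 33 named genes, 368 of 429 values under an alternative kept their direction and side of the threshold, 33 lost the threshold, 26 gained it and 2 changed sign. The count includes the threshold of 0.1, which refits nothing and can only add calls. A gene that passed neither in the main fit nor in the alternative counts as kept. With 32 to 114 reads, *Ltc4s* is the member that depth limits most.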
